A study of Arabidopsis thaliana with 4 samples.

Results

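The features described here are the spots of 5 small plates on a spotted array that was used to map H3K9me2 in Arabidopsis thaliana seedlings. They were chosen by identifier alone: every feature whose code begins with TD or PD, followed by a plate, a row letter and a column number, and that had a value in all 4 data columns. The rule found 96 TD features, all of plate TD01, and 316 PD features, of plates PD01 to PD04, together 412 of the 21727 measured features. Plates PD01 and PD02 held 96 features each, PD03 held 95 with well PD03C05 not among them, and PD04 held 29, from A01 to C05. The rule itself uses no measured value, although the plates were proposed for description with earlier results of these data known.

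The study immunoprecipitated chromatin of whole Col-0 seedlings with an H3K9me2 antibody and hybridised the recovered DNA (IP) together with input DNA on 2-colour arrays (ChIP-chip). The plants were grown for 11 days in liquid medium at 22 °C under a 16 h photoperiod and received no treatment. There was a single group, with no mutant and no other tissue, and 2 preparations, here replicate 1 and replicate 2, each on a pair of arrays with exchanged dyes. Nothing in the labels ties the preparations to separate cultures, so the p-values reflect the spread of these preparations alone, and that spread may be technical.

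H3K9me2 is histone H3 carrying dimethylated lysine 9. In Arabidopsis the mark is written mainly by the methyltransferase KYP (SUVH4) and its relatives, and it is maintained in a loop with CHG DNA methylation, which the chromomethylase CMT3 lays down on nucleosomes that carry the mark. It is known for covering silent transposons and repeats, which are densest in the heterochromatin around the centromeres, and for being scarce over active genes. Whole seedlings mix many cell types, so a ratio here is an average over all of them.

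The deposited value of a feature is a signed ratio of IP and input on a log scale. Its base, its direction and its normalization are not stated in the labels or the file, and the values of the dye-exchanged columns were identical for every feature. Each replicate therefore has 1 value per feature, n = 2, and values are given as units above or below the median of all measured features in that replicate, with no fold change. A feature is called higher or lower, not enriched or depleted, because dye-exchanged arrays with the same values do not settle the sign. The features carry no position, gene name or sequence in the files used here, and 0 of the 412 identifiers were found in the RefSeq gene table. They are therefore named by plate and well, and whether neighbouring wells hold neighbouring pieces of the genome is not stated. With no intensities at hand, how far a spot stood above background is unknown, and the precision is limited by the small number of arrays.

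The TD plate was divided by row. Its first 24 wells, rows A and B, were all above the array median, while the 72 wells of rows C to H lay close to it apart from scattered higher wells. The median of rows A and B was 1.11 units in replicate 1 and 1.06 units in replicate 2, against 0.047 and 0.013 units in rows C to H. In the mean of the replicates rows A and B exceeded rows C to H by 1.11 units in the median. All 24 wells of rows A and B were above 0 in both replicates, as were 32 of the 72 wells of rows C to H (44.4%). The share of rows C to H was near the 40.6% of the whole array. The division into rows was made after the values were seen and carries no test.

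**Figure D1:**
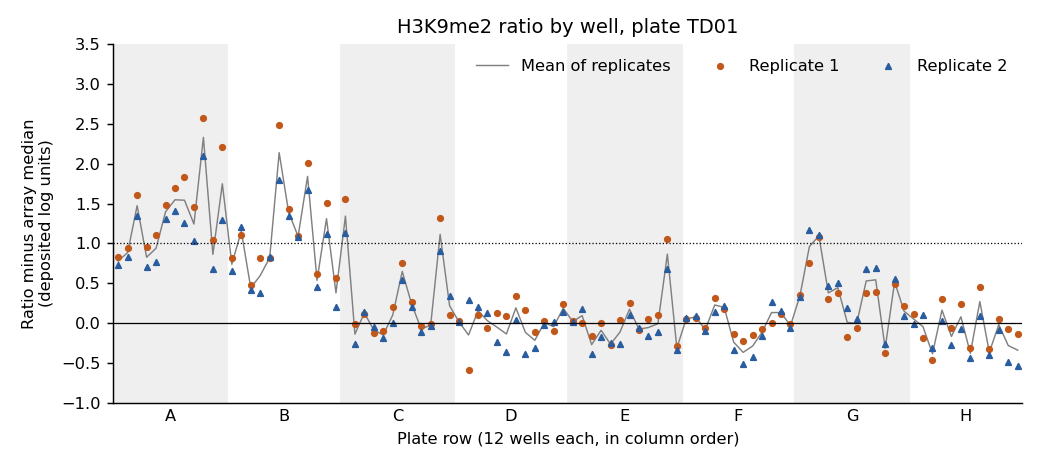
Ratio minus array median (y axis, deposited log units) for the 96 wells of plate TD01 in row and column order (x axis). Circles are replicate 1, triangles replicate 2, the line is their mean, the dotted line marks 1 unit and grey bands mark alternate rows. Rows A and B lie above 0 throughout, and rows C to H lie near 0 except for single wells and part of row G.

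Each feature was tested with limma against the array median, two-sided, with Benjamini-Hochberg adjustment over all 21727 measured features and a threshold of 0.05. The fit gave all features the same spread, so the test acted as a limit of 0.42 units on either side of the median. It called 33 of the 96 TD features above the median (34.4%, 95% Wilson interval 25.6 to 44.3) and 0 below it (interval 0 to 3.8%). For the calls below, 4 TD features lay below the median at an unadjusted p under 0.05, and 4 were called below by limma's trended robust fit. Over the whole array 28.9% of the features were called above and 11.7% below. Rows A and B held 23 of the 33 calls, rows C to H the other 10. Centring decided the split: without it 4 TD features were called above 0 and 78 below, and after quantile normalization 35 were called above and 4 below. Whole-array counts under these settings are not given here. The well not called in rows A and B was TD01B12, at 0.57 and 0.20 units (adjusted p = 0.0794 in limma).

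A rule of size, free of the shared spread, picked out the high-ratio features: those with a ratio of 1 unit or more over the array median in replicate 1 and also in replicate 2. There were 15 in the TD plate (15.6%, interval 9.7 to 24.2), against 19.2% over the whole array. Rows A and B held 13 of the 15, which made them 54.2% of those 24 wells. The remaining 2 were TD01C01, directly after row B, and TD01G03. A further 4 TD features (4.2%) passed the rule in replicate 1 alone and 1 (1.0%) in replicate 2 alone. Over the whole array these shares were 1.3% and 1.9%. All intervals given here treat features as independent and cover counting error only.

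The highest TD feature was TD01A10, at 2.57 units in replicate 1 and 2.09 in replicate 2. Its mean was 2.33 ± 0.34 units (SD, n = 2), with an adjusted p of 1.15e-36 in limma. Like the other limma p-values given here, this one rests on the mean and the shared SD of 0.26 units, not on the feature's own SD. TD01B06 followed, with 2.48 and 1.79 units, and TD01B09 with 2.01 and 1.68 units. These were peaks of single wells. The wells beside TD01A10 had means of 1.24 and 0.86 units, those beside TD01B06 had 0.82 and 1.39 units, and those beside TD01B09 had 1.09 and 0.54 units.

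TD01A12 was high in both replicates but by unequal amounts, with 2.20 units in replicate 1 and 1.29 in replicate 2. TD01A07, TD01A08, TD01A03 and TD01A06 had means between 1.40 and 1.55 units and completed the 8 highest. All 8 thus came from rows A and B. Of the whole array, 10.8% of the features lay at or above the mean of TD01A10 and 17.1% at or above that of TD01A06.

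The high-ratio TD features formed 2 runs of at least 3 consecutive wells. TD01A06 to TD01A10 had 5 wells with an average of 1.81 units in replicate 1 and 1.42 in replicate 2, and TD01B06 to TD01B09 had 4 wells with averages of 1.76 and 1.47 units. Inside the second run TD01B07 had 1.43 and 1.35 units and TD01B08 had 1.10 and 1.08 units. The other 6 high-ratio features stood alone. With the limma call in place of the rule of size, the first 23 wells of the plate, TD01A01 to TD01B11, made an unbroken run with an average of 1.20 units. How common such runs were over the whole array is not given here.

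Just inside the rule of size were TD01A09, at 1.45 and 1.04 units, and TD01B08. Just outside were TD01C11, at 1.32 and 0.91 units, and TD01A02, at 0.94 and 0.83 units. Values near 1 unit were common in rows A and B, where 16 of the 24 wells had a mean between 0.5 and 1.5 units. A limit of 0.5 units in both replicates gave 26 TD features and one of 1.5 units gave 3. Shares of the whole array at these limits are not given here.

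Rows C to H held few high wells. TD01C01 had 1.56 units in replicate 1 and 1.13 in replicate 2, and the step to the next well, TD01C02, was -1.48 units in the mean. TD01E11 had 1.06 and 0.68 units between wells at -0.0042 and -0.31 units. Row G differed from the rows on either side of it. Its median was 0.37 units in replicate 1 and 0.49 units in replicate 2. limma called 6 of its 12 wells above the median (50%, interval 25.4 to 74.6), led by TD01G03 at 1.08 and 1.11 units. Row F and row H had 0 calls each. The interval of row G includes the 28.9% of the whole array. Only 1 of its 12 wells (8.3%) was high-ratio, against 19.2% over the whole array. Row G was singled out after its values were seen and carries no test.

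No TD feature lay far below the median. The lowest, TD01H03, had -0.46 and -0.31 units (adjusted p = 0.0801 in limma), and TD01H07, TD01F07, TD01H09 and TD01H12 had means between -0.38 and -0.34 units. None of these 5 passed the threshold. Their place was near the bottom of the plate, with 4 of the 5 in row H.

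Row position was also examined on the other plates of the array, as a description. Among the 217 TA, TB and TC plates with at least 80 measured features, the median of rows A and B minus the median of rows C to H was 0.012 units in the middle plate and ran from -0.42 to 0.72 units between the 5th and 95th percentiles. In 5 of these plates it was at least as large as the 1.11 units of TD01. On plates PD01, PD02 and PD03 it was -0.024, 0.051 and -0.13 units. The split was chosen on TD01 after its values were seen, and the other plates were not given splits of their own. The count of 5 therefore favours TD01 and carries no test. With a single TD plate, the content of the wells and their position on the plate cannot be told apart.

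The PD plates were mostly near the array median, with a few narrow peaks. In the mean of the replicates the median of each of the 4 plates lay between 0.019 and 0.22 units, and the high-ratio features lay in PD01, PD03 and PD04. limma called 69 of the 316 PD features above the median (21.8%, interval 17.6 to 26.7), against 28.9% over the whole array, and 6 below it (1.9%, interval 0.9 to 4.1), against 11.7%. The high-ratio features numbered 13 (4.1%, interval 2.4 to 6.9), against 19.2%. Another 4 (1.3%) passed the rule of size in replicate 1 alone and 7 (2.2%) in replicate 2 alone, so that replicate 2 by itself gave 20. These 2 shares were near those of the whole array, 1.3% and 1.9%. Without centring, limma called 8 PD features above 0 and 296 below it, and the whole-array counts for that setting are not given here.

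**Figure D2:**
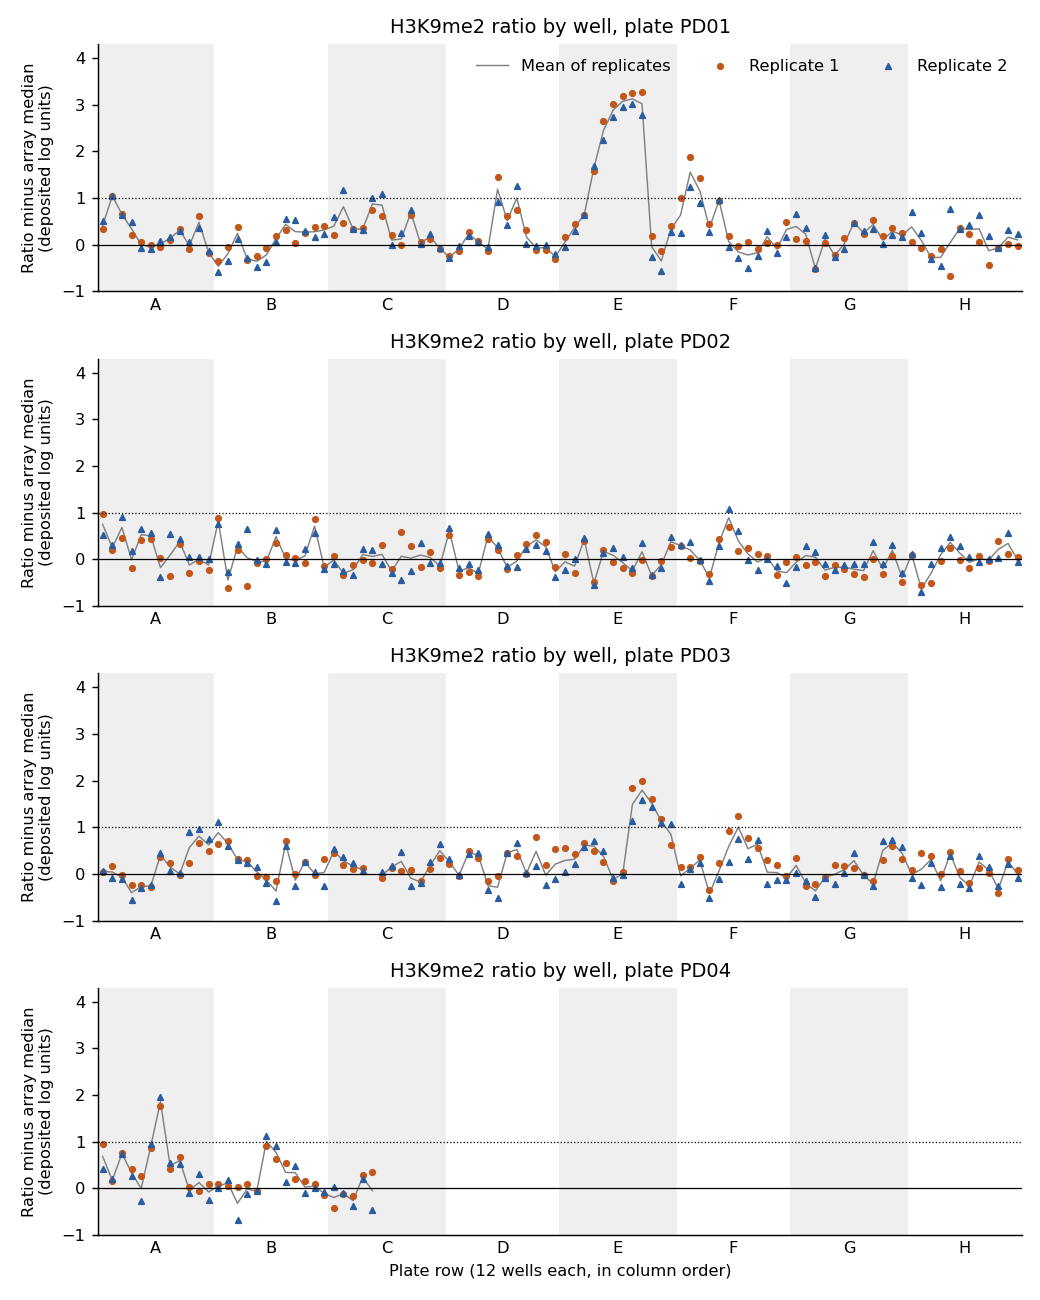
Ratio minus array median (y axis, deposited log units) for the wells of plates PD01 to PD04 in row and column order (x axis), with symbols as in the TD plot: circles for replicate 1, triangles for replicate 2, a line for their mean and a dotted line at 1 unit. A single peak above 3 units stands in row E of PD01, smaller peaks stand in row E of PD03 and row A of PD04, and PD02 has none.

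The leading stretch was PD01E04 to PD01E09, 6 consecutive wells with an average of 2.83 units in replicate 1 and 2.57 in replicate 2. It rose in steps and ended abruptly. The means in well order were 0.057 units in PD01E01, 0.37 in PD01E02, 0.64 in PD01E03, 1.64 in PD01E04, 2.45 in PD01E05, 2.88 in PD01E06, 3.07 in PD01E07, 3.13 in PD01E08 and 3.02 in PD01E09, followed by -0.04 units in PD01E10. Both replicates had this shape, with each well from PD01E02 to PD01E08 above the well before it in replicate 1 and in replicate 2.

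The top well, PD01E08, had 3.24 units in replicate 1 and 3.01 in replicate 2 (mean 3.13 ± 0.16, SD, n = 2, adjusted p = 2.12e-64 in limma). PD01E09 had 3.27 and 2.77 units, and PD01E10 had 0.18 and -0.26 units. Between these neighbours the ratio fell by 3.09 units in replicate 1 and fell by 3.03 units in replicate 2. Of the 21388 steps between directly consecutive wells of a plate on the whole array, 7 were at least as large as this one in the mean, itself included. The wells PD01E07 to PD01E09 were also the only PD features with a mean above 3 units, and 2.0% of all features on the array lay at or above PD01E08.

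The second stretch was PD03E08 to PD03E11, with an average of 1.65 units in replicate 1 and 1.31 in replicate 2. Its shape ran the other way, with an abrupt start and a graded end. PD03E07 lay at 0.034 and -0.034 units, PD03E08 at 1.83 and 1.14, PD03E09 at 2.00 and 1.59, PD03E10 at 1.61 and 1.42, and PD03E11 at 1.17 and 1.10. PD03E12, at 0.62 and 1.07 units, passed the limma threshold but not the rule of size, and PD03F01 lay at -0.042 units in the mean.

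The remaining 3 high-ratio PD features stood alone. PD04A07 had 1.77 units in replicate 1 and 1.95 in replicate 2 (adjusted p = 9.64e-24 in limma), between wells with means of 0.91 and 0.49 units. PD01F02 had 1.87 and 1.24 units, beside PD01F03 at 1.42 and 0.88 units. PD01A02 had 1.05 and 1.04 units and was the closest to the limit from within. On the other side of the limit, PD01F05 had 0.93 and 0.97 units, and PD01D06 had 1.46 and 0.92 units.

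Weaker stretches were seen only with the limma call, which gave 8 runs of at least 3 wells in PD plates, holding 34 of the 69 called features. Besides the stretches above these included PD03A10 to PD03B02, 5 wells across a row border with an average of 0.71 units, and PD03F06 to PD03F09, 4 wells with 0.69 units. The 5 wells of the first averaged 0.55 units in replicate 1 and 0.86 in replicate 2, those of the second 0.87 and 0.51 units, so the order of the 2 stretches differed between the replicates. A further 23 calls stood alone and the others formed 6 pairs. Counts of runs over the whole array are not given here, so whether runs were more or less common in PD cannot be read from these numbers.

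Plate PD01 had 8 high-ratio features (8.3%), PD02 had 0, PD03 had 4 (4.2%) and PD04 had 1 (3.4%), against 19.2% over the whole array. limma called above the median 24 of 96 features in PD01 (25%, interval 17.4 to 34.5), 10 of 96 in PD02 (10.4%, 5.8 to 18.1), 27 of 95 in PD03 (28.4%, 20.3 to 38.2) and 8 of 29 in PD04 (27.6%, 14.7 to 45.7). The intervals of PD01, PD03 and PD04 include the 28.9% of the whole array, and that of PD02 lies below it. They treat wells as independent, although consecutive wells correlated at 0.743 in PD01 and 0.535 in PD03, so they may be too narrow. All wells also share the same 2 preparations, so the intervals are no test of a plate against the array. PD02 was also the plate closest to the array median, at -0.012 units in replicate 1 and 0.0071 in replicate 2. Its highest feature, PD02F06, had 0.70 and 1.08 units. The order of the other plates changed with the replicate: PD01, PD03 and PD04 had medians of 0.18, 0.20 and 0.17 units in replicate 1 and of 0.24, 0.10 and 0.15 units in replicate 2.

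The lower end of the PD plates was shallow. The lowest feature was PD02H02, at -0.55 units in replicate 1 and -0.71 in replicate 2 (adjusted p = 0.00182 in limma). PD02E04, PD01G03, PD01B01 and PD02B02 had means between -0.51 and -0.44 units and passed the threshold by a small margin, with adjusted p between 0.0137 and 0.0372 in limma. All 4 lost the call when the replicates were centred on the mode, where 1 PD feature was called below, and with treat against 0.5 units, where 0 were. No PD feature was 1 unit below the median in either replicate.

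Set side by side, the TD and PD plates had nearly the same median and different upper parts. The median was 0.15 units in TD and 0.12 units in PD in replicate 1, and 0.13 units in TD and 0.15 units in PD in replicate 2, so the order of the medians changed with the replicate. The upper quartile was 0.82 units in TD and 0.39 units in PD in replicate 1, and 0.68 units in TD and 0.44 units in PD in replicate 2. It was thus higher in TD in both. With 2 replicates an exact sign-flip permutation test cannot go below p = 0.5, so no test of these differences is given.

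Means between 0.5 and 1.5 units were held by 25 TD features (26.0%) and 45 PD features (14.2%), against 10.7% of the TA, TB and TC features. Means of at least 1.5 units were held by 6 TD features (6.25%) and 10 PD features (3.2%), against 16.7% in the other plates. The shares of the other plates pool plates of unlike level and do not stand for a typical plate. For example, the median of rows C to H was 3.11 units in TC29 and -0.36 units in TB57. Of the 10 PD features 5 exceeded the highest TD feature. At the lower end, 0 of the 96 TD features and 3 of the 316 PD features had a mean below -0.5 units, against 1541 of the 21315 TA, TB and TC features (7.2%, interval 6.9 to 7.6). The 5th percentile of the mean was -0.32 units in TD and -0.31 units in PD, against -0.55 units in TA, TB and TC plates. The 95th percentile was 1.54 units in TD and 1.003 units in PD, against 2.89 units in the other plates.

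**Figure D3:**
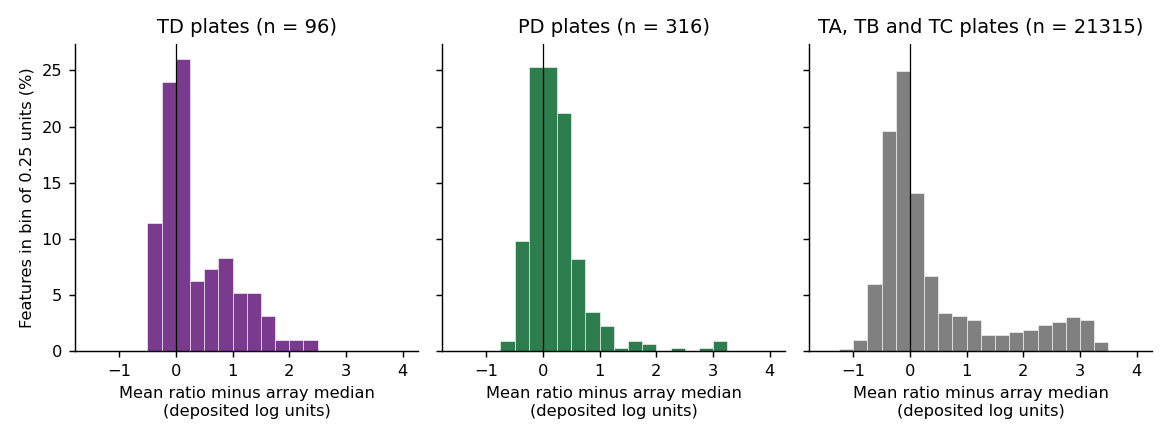
Share of features (y axis, percent) in bins of 0.25 units of the mean ratio minus the array median (x axis, deposited log units) for the 96 TD, the 316 PD and the 21315 TA, TB and TC features. The TD plate has a shoulder between 0.5 and 1.5 units, the PD plates have a narrow body with isolated bins near 3 units, and the other plates extend both further down and into another mode near 3 units.

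Pearson's r between replicates was 0.928 over the 96 TD features and 0.839 over the 316 PD features, and Spearman's rho was 0.864 and 0.695. Leaving out PD01E04 to PD01E09 brought r in PD to 0.726. Over the 96 features of PD02, which has no peak, r was 0.597. These are correlations across features of the same 2 preparations, given as a description, and they depend on the range of the values.

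Within the range of means from 0.5 to 1.5 units, r was 0.739 over 25 TD features and 0.140 over 45 PD features. Over the 2291 TA, TB and TC features of that range it was 0.447. The replicate difference had an SD of 0.24 units among these TD features, 0.37 among these PD features and 0.34 among the others. Below 0.5 units r was 0.548 in TD, 0.456 in PD and 0.536 in the TA, TB and TC features. Choosing features by their mean, as here, itself lowers r in each of these sets.

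**Figure D4:**
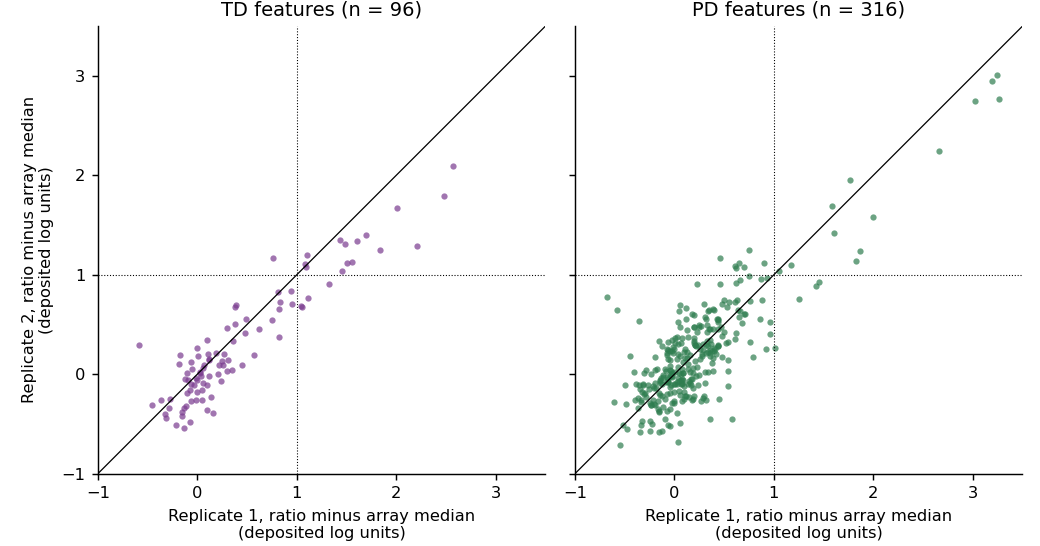
Replicate 2 (y axis) against replicate 1 (x axis), both as ratio minus array median in deposited log units, for the 96 TD features and the 316 PD features. Each point is a feature, the solid line marks equal values and the dotted lines mark 1 unit. Most high TD points lie below the line, and the PD cloud below 1 unit is wide.

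The higher wells had larger values in replicate 1. All 6 TD features with a mean of at least 1.5 units were higher in replicate 1, with a median difference, replicate 2 minus replicate 1, of -0.53 units. Among the 10 such PD features 8 were higher in replicate 1, with a median of -0.26 units. The same difference was -0.48 units among the 3558 TA, TB and TC features of that level. In TD01 the sign changed by row: replicate 1 was higher in 12 of 12 wells of row A, and replicate 2 was higher in 10 of 12 wells of row G.

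The largest disagreements between replicates in PD were in features near the median. PD01H05 had -0.68 units in replicate 1 and 0.77 in replicate 2, and PD02B04 had -0.57 and 0.64 units. In TD the largest near-median difference was in TD01D02, with -0.58 and 0.29 units. Of the 316 PD features 29 differed by at least 0.5 units and 3 by at least 1 unit, and of the 96 TD features 5 and 0 did. Over the whole array 3780 of the 21727 features differed by at least 0.5 units and 132 by at least 1 unit. The SD of the replicate difference was 0.31 units in PD and 0.26 units in TD, against 0.35 units over the whole array.

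Consecutive wells were correlated over TD01 as a whole and over the PD plates as a whole, but not within every part of them. For directly consecutive wells, Pearson's r was 0.618 over 95 TD pairs and 0.620 over 314 PD pairs. At 4 wells apart it was 0.605 in TD and 0.151 in PD, with values of 0.246 in PD at 3 wells and 0.419 at 2 wells. Without PD01E04 to PD01E09, Pearson's r in PD was 0.224 at 2 wells and 0.066 at 3 wells. Spearman's rho at 1 to 4 wells was 0.342, 0.164, 0.054 and 0.054 in PD. In TD rho was 0.532, 0.545, 0.458 and 0.525. The correlation thus fell with distance in PD and stayed near its starting value over 4 wells in TD. Replicate 1 of a well and replicate 2 of the next come from different arrays. Between them Pearson's r was 0.585 in TD and 0.564 in PD.

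In TD the correlation was smaller inside either group of rows. Within rows A and B the correlation of consecutive wells was -0.118 over 23 pairs, with -0.125 in replicate 1 and -0.096 in replicate 2. Within rows C to H it was 0.176 over 71 pairs and depended on the replicate, with 0.037 in replicate 1 and 0.342 in replicate 2. Over the whole plate the replicates gave 0.595 and 0.626. In PD it was 0.417 over 307 pairs without PD01E04 to PD01E09, and it differed by plate, with 0.743 in PD01, 0.015 in PD02 and 0.535 in PD03. Wells 12 apart, which lie below each other on the plate, correlated at 0.401 in TD and 0.072 in PD, and at -0.134 within rows C to H of TD. These values describe features that share 2 preparations and their arrays, and in small sets they vary widely.

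**Figure D5:**
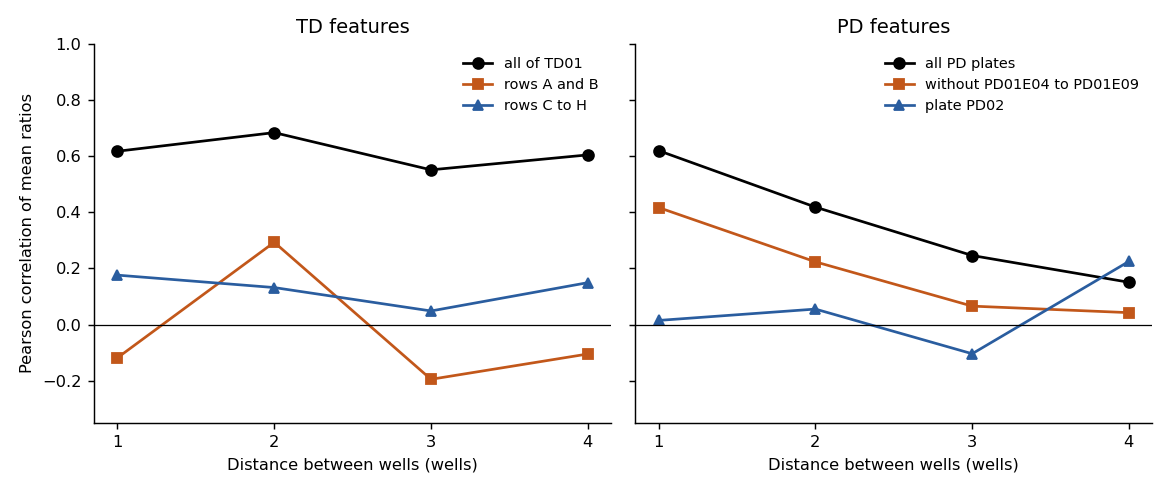
Pearson correlation of mean ratios (y axis) between wells 1 to 4 places apart (x axis), for TD features at left and PD features at right. Over all of TD01 the correlation stays between 0.551 and 0.684, but it is low within rows A and B and within rows C to H. In PD it falls with distance, is lower without the 6 wells PD01E04 to PD01E09, and is near 0 for consecutive wells of PD02.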

How the data were processed

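H3K9me2 ChIP-chip values of 4 arrays (2 replicates, each with exchanged dyes) were taken from the authors' deposited value table, a signed score per feature and array that by its signs is a ratio on a log scale. Amplified DNA received the Cy3 and Cy5 dyes by direct labelling, per the labels' protocols. The sources used here do not give the platform, background correction, normalization, log base or direction. Of 21800 listed features 73 were empty. Medians as deposited were -1.39 (replicate 1) and -1.15 (replicate 2). The identical dye-exchanged columns were averaged to 1 value per replicate, and each replicate was centred on its median over 21727 features. limma 3.58.1 (R 4.3.3) tested the mean against 0 over the whole table, after a check on simulated data. The simulated noise was independent and had the same SD for every feature, so the check could not test whether the spread is equal. On the measured values limma's prior degrees of freedom came out as infinite, with an SD of 0.26 units for every feature. Counts, quantiles and correlations used Python 3.11.15, NumPy 2.4.6 and SciPy 1.17.1.

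The members follow from their identifiers alone, but these plates, the tests and the settings were chosen with earlier results of these data known. Named features were, in TD and PD apart, the 8 highest, the 5 lowest, the 2 with the largest replicate difference, members of runs of at least 3 high-ratio wells and the 2 nearest to the rule of size on each side. Others, such as TD01B12, TD01C01, TD01E11, TD01G03, PD01F02, PD03E12 and PD02F06, were chosen after their values were seen. Alternatives were no centring, the mode as centre, quantile normalization, stricter and looser limits, treat, a trended robust fit, turned signs and single replicates. Feature sequences and positions were not used here.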

Additional observations from a re-analysis of the deposited data

How the results depend on the processing

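The counts depended on the centring and the threshold. Without centring, limma called 4 TD and 8 PD features above 0 and 78 TD and 296 PD features below it, 0 TD and 5 PD features passed the rule of size, and the medians were -1.13 units in TD and -1.17 units in PD. Among named features called above the median, 8 then lay below 0, namely TD01A09 at -0.024, TD01B08 at -0.18, TD01C11 at -0.15, TD01A02 at -0.38, PD01A02 at -0.22, PD03E11 at -0.13, PD01F05 at -0.32 and PD01D06 at -0.079 units. Centred on the mode, 126 PD features were called above and 1 below, and the medians were 0.31 units in TD and 0.28 units in PD. Calls below numbered 4 in TD and 12 in PD after quantile normalization, and 4 in TD and 11 in PD with the trended robust fit. At an adjusted p under 0.01, 1 PD feature was called below. With treat against 0.5 units, 18 TD and 19 PD features were called above and 0 PD features below. Turning the sign gave 0 TD and 6 PD calls above and 33 TD and 69 PD calls below. A limit of 0.5 units in both replicates gave 26 TD and 41 PD features, and 1.5 units gave 3 TD and 8 PD features. The shares of the whole array given in this report belong to the main setting, and those under the other settings are not given. Whether TD and PD moved with the array or apart from it cannot be read from these counts. Leaving out a replicate leaves no test. It gave 16 to 19 TD and 17 to 20 PD features past the rule of size, medians of 0.13 to 0.15 units in TD and 0.12 to 0.15 units in PD, and a TD minus PD median of -0.017 to 0.027 units. The PD count was 20 without replicate 1, which is over 1.5 times the 13 in both. The other planned settings kept counts within 1.5 times of those reported. Of 40 named features, 7 lost their call without centring besides the 8 above, 4 of them among the 8 highest in TD; 6 lost it with treat, 4 at an adjusted p under 0.01 and 4 when centred on the mode. No paired analysis was possible because there is a single group, whose values are already ratios of IP and input; TD and PD were set side by side within each replicate, with no test. The rows of TD01 and all correlations of wells, with or without PD01E04 to PD01E09, were examined after the data were seen.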
